A study of Mus musculus with 4 samples.

Results

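Translation initiation factors (eIFs) and elongation factors (eEFs) are the proteins that load ribosomes onto messenger RNA and move them along it. The genes described here were taken from the gene symbols of the count matrices: those beginning with Eif1 to Eif6 or with Eef1 or Eef2, without the Eif2ak kinases, the Eif4ebp binding proteins, the Y-linked copy of the eIF2 gamma subunit and pseudogenes. The rule gave 58 of 21594 symbols. By complex these were 3 genes of eIF2, 5 of eIF2B, 14 of eIF3, 12 of the eIF4 group, 9 of eIF1, eIF5 and eIF6, 6 of eEF1, 1 of eEF2 and 8 other factors and modifying enzymes. Eif2c5 matched the rule by its symbol only, since Eif2c is an older name of the Argonaute proteins.

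Translation starts when eIF2 brings the initiator tRNA to the small ribosomal subunit and eIF2B recharges eIF2 with GTP. The eIF4 proteins bind the cap and unwind the mRNA, eIF3 holds the initiation complex together, eEF1 brings each aminoacyl-tRNA to the ribosome and eEF2 moves the ribosome by a codon. In the integrated stress response, phosphorylation of eIF2 alpha blocks eIF2B, which lowers initiation on most mRNAs but lets the mRNA of the transcription factor Atf4 be translated. Beta cells, which make large amounts of insulin, are known to depend on this control.

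The islets came from mice 2 months old and were dissociated for droplet counting of RNA in single cells. The 2 mutant samples carried both floxed Atf4 alleles and the driver Ins1Cre, which expresses Cre recombinase from the Ins1 locus in insulin-producing cells. The 2 control samples carried the floxed alleles without the driver, so the driver and the loss of Atf4 change together and cannot be told apart. Each sample pooled several animals (2 of each sex by the design text, 3 to 4 mice by the protocol). Every p-value of mutant against control within a class therefore measures the spread between 2 pools a group. Those of comparisons between classes measure how the classes vary within the same 4 pools. The matrices held 13706563 to 17655893 counts of unique molecular identifiers (UMIs) per sample, and within a group the sums over all kept cells differed beyond counting error (chi-square over its degrees of freedom 14.7 and 17.6). Between 41 and 82 cell barcodes were shared by each pair of libraries, out of 2352 to 3272 per library. Cell classes were rebuilt from marker genes. None of the translation factors was among the genes used to cluster cells.

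Of 6967 cells kept, 4201 were beta-like (839 and 940 in mutants 1 and 2, 1287 and 1135 in controls 1 and 2). The beta-like class was made of other clusters in each group, clusters 0 and 5 leading in the mutants and clusters 4, 15, 11 and 9 in the controls. In the summed beta-like cells, Atf4 stood at 3.40 and 116.9 counts per 1e6 counts (CPM) in mutants 1 and 2 and at 361 and 378 CPM in controls 1 and 2. Both mutants thus lay below both controls, but mutant 2 kept a part of its Atf4 counts. The log2 change of Atf4, mutant minus control, was −2.62 with an SE of 0.970. It did not pass the test used below for the translation factors (edgeR adjusted p = 0.262). Of 11 beta cell markers, 10 or 11 had counts in each beta-like sum, Mafa being at 0 in mutant 2 and control 1. Alpha-like cells numbered 961, delta-like 701, endothelial-like 323 and macrophage-like 205 (PP-like cells, 188, had too few in 1 sample to test). These classes carried beta cell RNA: insulin counts made up 6.79% to 10.5% of alpha-like sums, 13.4% to 18.7% of delta-like sums and 17.7% to 30.7% of endothelial-like and macrophage-like sums, against 30.4% to 35.9% in beta-like sums. Acinar markers (12 of 12 detected) summed to 35.3 and 37.1 CPM in mutant beta-like cells and to 125 and 200 CPM in control ones. Macrophage markers summed to 69.2 and 99.4 CPM in the mutants and to 133 and 136 CPM in the controls. The part of either in the results below was not tested.

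Among the start regions of these genes, those of Eef1a1 and Eif3f are shown because translation factor mRNAs often begin with a run of pyrimidines, a feature that ties their translation to growth signals, and because both genes were lower in mutant beta-like cells. The 25 bases run from 10 before to 15 after the start annotated by RefSeq (GRCm38.p6), 5′ to 3′, with the run in capitals. The searched run is a C followed by at least 4 further C or T on the transcribed strand, beginning within 4 bases of the start.
Eef1a1, chr9:78481710-78481734, minus strand: ctccgcCCTCTTCCCgagggtgggg
Eif3f, chr7:108934405-108934429, plus strand: tctaggCTCTCTCTCTTTCTCggca
Eef2, chr10:81176621-81176645, plus strand: aaggccgggcgttgacgtcagcggt
Eif4b, chr15:102073763-102073787, plus strand: tcccgtcggacgccgcgccaccccc
Eif3a, chr19:60790679-60790703, minus strand: ctcgggcggcggcgctgccgccgcg
The windows of Eef2, Eif4b and Eif3a, the other members named most below, hold no such run. Of the 45 members with a window, 9 held the run (20%), against 16.4% of 27025 genes. The 2 shown were chosen for their lower level, and of the others with the run Eif3l, Eif1ad, Eif2s3x, Eif3b and Eif4g1 overlapped between the groups, Eif2b5 was higher in both mutants and Eif2c5 was too sparse to test. The 8 tested had 3 positive and 5 negative changes (62.5% negative), beside 54.1% negative among 978 genes with the run at a log2 CPM of 4 or more. The annotated start need not be the one used in islets, and a window without the run says only that these letters are not there.

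The gene body spans were, on GRCm38, chromosome 9, 78478449 to 78489151 for Eef1a1, chromosome 7, 108934417 to 108942951 for Eif3f, chromosome 10, 81176631 to 81182498 for Eef2, chromosome 15, 102073773 to 102097173 for Eif4b, and chromosome 19, 60761117 to 60790658 for Eif3a. Each gene's count is a sum over its transcripts, so no exon or UTR can be told apart.

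The comparison of mutant with control beta-like cells asks whether loss of Atf4 came with other levels of the RNAs of the translation machinery. The elongation factors eEF1A1, eEF2 and 3 subunits of the eEF1B exchange complex were lower in both mutants than in both controls, and so were the initiation factor subunits Eif3f, Eif3h and Eif3k, the helicase Eif4a2 and its cofactor Eif4b. Eif3a, the largest subunit of eIF3, Eif3j1, Eif5, Eif5b, Eif2b3 and Eef1e1 were higher in both mutants. These differences ran to 0.62 on the log2 scale. The subunits of eIF2 itself lay closer to 0. None of the 56 members tested passed the edgeR quasi-likelihood test with Benjamini-Hochberg adjustment over 13422 genes, where 0.715% of all genes passed. Atf4 itself did not pass this test either (edgeR adjusted p = 0.262), so a member that did not pass is not thereby shown to be unchanged. At an unadjusted p under 0.05 there were 16 members, of which 6 were higher and 10 lower. That is 28.6% of the members against 14.4% of all genes, by direction 10.7% against 7.70% higher and 17.9% against 6.75% lower. The median log2 change was 0.02 over the members and 0.01 over all genes. DESeq2 called 6 of the 56 (Eif3f, Eef2, Eif3a, Eef1a1, Eif4a2 and Eif4b), or 10.7% against 1.74% of all genes, and limma-voom called 0 (0.633% of all genes). The groups did not overlap for 30 members (53.6%), against 46.2% of all genes.

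**Figure D1:**
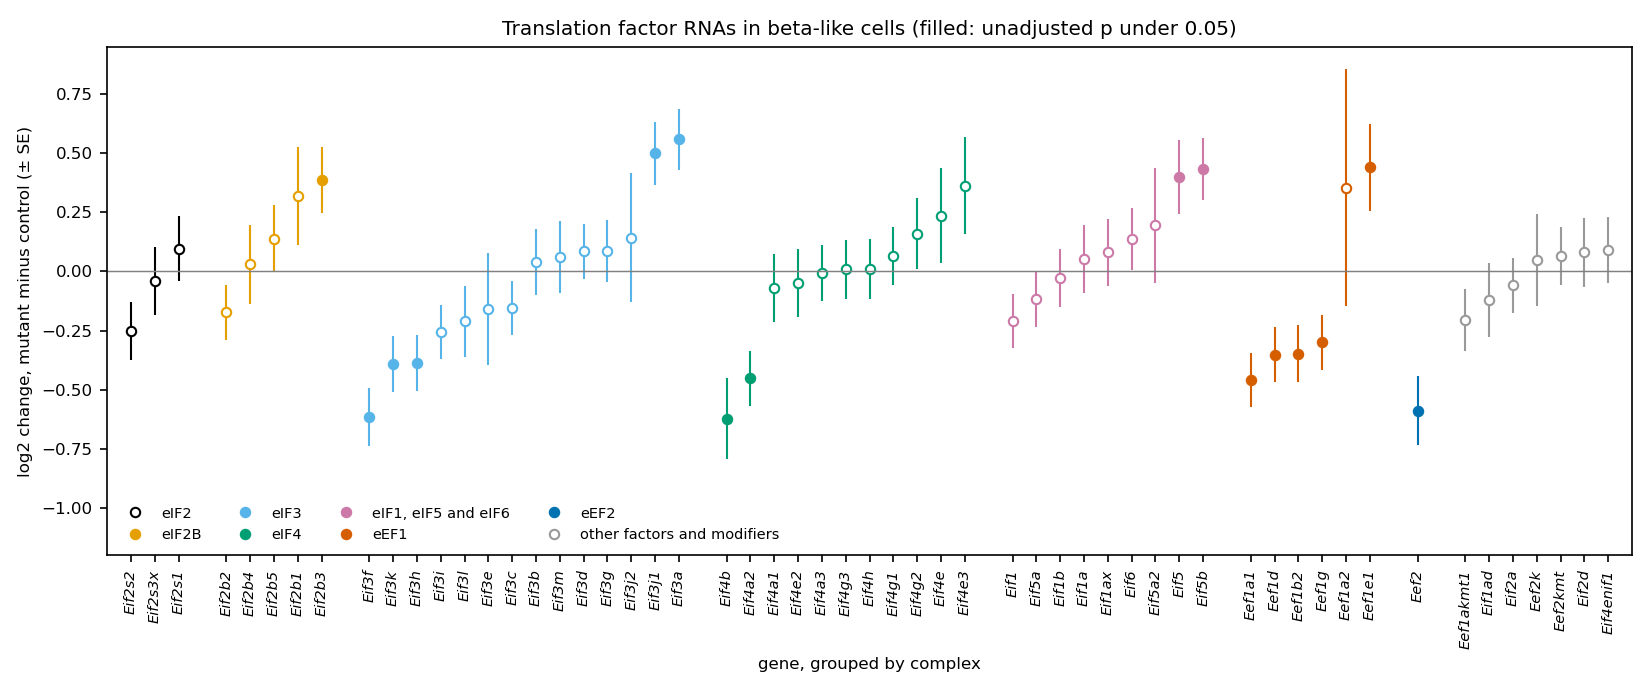
Log2 change in beta-like cells, mutant minus control, for each of the 56 members tested (vertical axis, points with SE, 2 samples a group), grouped by complex along the horizontal axis. Filled points have an unadjusted p under 0.05; the eEF1 and eEF2 points lie below 0 except for Eef1a2 and Eef1e1, and eIF3 and eIF4 hold points on both sides.

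Levels below are TMM-scaled CPM of the beta-like sums, in the order mutant 1, mutant 2, control 1, control 2, and changes are log2, mutant minus control, ± SE with n = 2 a group and the edgeR adjusted p. Scaling by library totals alone moved the median log2 change of all genes from 0.01 to 0.12, and the members moved with it, from 0.02 to 0.13. Under it 6 members changed from a negative to a positive value: Eif1b, Eif2a, Eif2s3x, Eif4a1, Eif4a3 and Eif4e2. In bulk sums of this kind, fewer cells with a high level and less RNA per cell cannot be told apart.

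The elongation factors are given first. Eef1a1, the major form of the GTPase that delivers aminoacyl-tRNA, stood at 1217, 1388, 1788 and 1796 CPM. Both mutants lay below both controls, which were nearly equal, with a change of −0.46 ± 0.113 (edgeR adjusted p = 0.115). Its many processed pseudogenes can share reads with it, so its count is uncertain to that extent. Eef1b2, Eef1d and Eef1g encode the beta, delta and gamma subunits of eEF1B, which reloads eEF1A with GTP. Eef1b2 stood at 244, 222, 302 and 291 CPM, a change of −0.35 ± 0.121 (edgeR adjusted p = 0.238). Eef1d stood at 60.5, 61.2, 76.8 and 78.4 CPM, a change of −0.35 ± 0.114 (0.210). Eef1g stood at 298, 281, 355 and 357 CPM, a change of −0.30 ± 0.116 (0.282). In all 3 the mutants were the lower pair and the difference between groups exceeded that within either. Eef1e1, which belongs to the aminoacyl-tRNA synthetase complex and not to eEF1 itself, went the other way with 20.3, 15.0, 12.6 and 13.3 CPM (0.44 ± 0.184, edgeR adjusted p = 0.317). Eef1a2, the form of eEF1A known from muscle and neurons, was near 1 CPM in all 4 samples. Summed over the 6 genes, the eEF1 level was 1841 and 1968 CPM in the mutants and 2536 and 2537 CPM in the controls, −0.41 on the log2 scale. Eef1a1 made up most of that sum, and without it the value was −0.31.

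Eef2, the single gene of the translocation factor, stood at 320, 413, 577 and 525 CPM. Mutant 1 was the lowest of the 4 samples and mutant 2 lay between it and the controls. In alpha-like cells, 601, 698, 730 and 699 CPM ran in the same order. Eef1b2, Eef1g, Eif4a2 and Eif3k had mutant 2 as the lowest beta-like sample instead. A link of these orders to the Atf4 counts was not tested. The change of Eef2 in beta-like cells was −0.59 ± 0.146 (edgeR adjusted p = 0.119). Eef2k, the kinase that inactivates eEF2, was near equal at 10.6, 8.77, 9.39 and 9.35 CPM. Eef2kmt and Eef1akmt1, methyltransferases of elongation factors, changed by 0.07 ± 0.122 and −0.21 ± 0.131.

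The eIF4 group divided within itself. Eif4b, which stimulates the helicase eIF4A, stood at 80.8, 115, 159 and 142 CPM, a change of −0.62 ± 0.172 (edgeR adjusted p = 0.155). As for Eef2, mutant 1 was lowest and mutant 2 lay between, also in alpha-like cells (174, 231, 240 and 242 CPM). Eif4a2, one of the 2 helicase paralogues, stood at 241, 233, 327 and 322 CPM, with both mutants close together and a change of −0.45 ± 0.116 (0.130). Its paralogue Eif4a1 overlapped between groups at 171, 135, 156 and 165 CPM (−0.07 ± 0.144). The cap-binding protein gene Eif4e, with 10.4, 13.5, 10.9 and 9.43 CPM, and the scaffold genes Eif4g1, Eif4g2 and Eif4g3 overlapped as well. Their log2 changes lay between 0.01 and 0.24, those of Eif4a3, Eif4e2, Eif4e3 and Eif4h between −0.05 and 0.36, and the difference between Eif4a2 and Eif4a1 was not tested.

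The 14 genes of eIF3 also went both ways, with 7 positive and 7 negative changes, and their summed level was 1152 and 1039 CPM in the mutants against 1152 and 1123 CPM in the controls. Eif3f, a subunit with an MPN domain, stood at 71.96, 76.98, 119 and 109 CPM. Both mutants lay well below both controls, and its change of −0.62 ± 0.122 had the lowest p of all members (edgeR adjusted p = 0.0661). Eif3k stood at 91.3, 88.3, 119 and 116 CPM (−0.39 ± 0.117, 0.179) and Eif3h at 92.7, 93.7, 127 and 117 CPM (−0.39 ± 0.119, 0.189). Eif3h carries the other MPN domain of the complex, and Eif3k is one of its smallest subunits. Eif3a, which forms the base of eIF3, stood at 194, 169, 119 and 127 CPM, so that both mutants were the higher pair, by 0.56 ± 0.128 (edgeR adjusted p = 0.0997). Eif3j1, a loosely bound subunit, stood at 53.5, 44.2, 33.9 and 35.1 CPM (0.50 ± 0.134, 0.148). Its near-identical copy Eif3j2 overlapped between groups at 23.9, 11.97, 15.5 and 17.0 CPM, and reads may be split between the copies. The other 8 genes of eIF3 lay between −0.26 and 0.09.

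**Figure D2:**
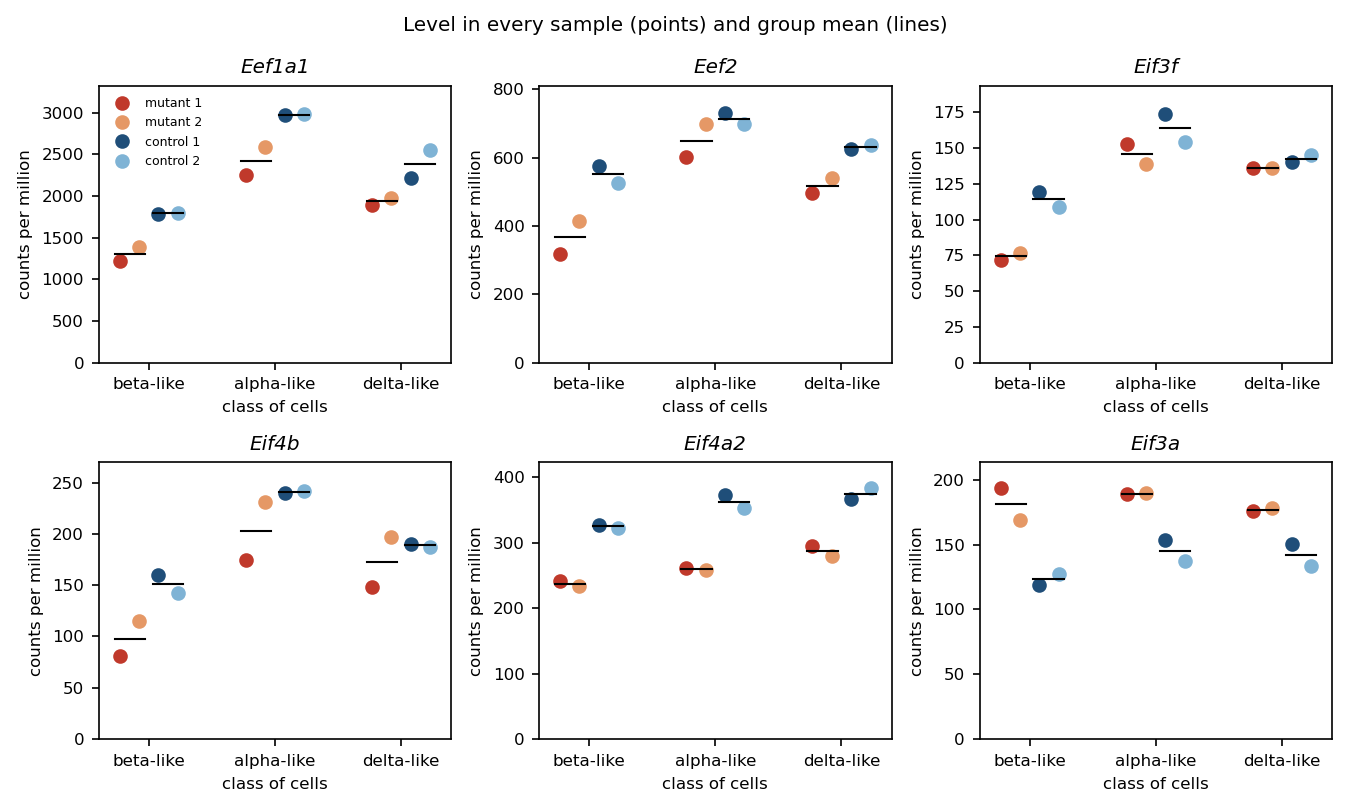
Level in CPM (vertical axes, starting at 0) of 6 members in each sample (points, coloured by sample) of the beta-like, alpha-like and delta-like classes, with lines at the group means. In beta-like cells Eif3f lay at 71.96 and 76.98 in mutant and at 119 and 109 in control samples. In alpha-like cells it lay at 153 and 139 in mutant and at 174 and 154 in control samples. In delta-like cells all 4 samples lay between 136 and 145, the mutants again being the lower pair. A difference of the mutant change between these classes was not shown.

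For eIF2, the factor whose phosphorylation starts the response that Atf4 belongs to, the values were close to even. Eif2s1, the alpha subunit that is phosphorylated, stood at 32.7, 28.2, 28.6 and 28.3 CPM (0.10 ± 0.137, edgeR adjusted p = 0.799). Eif2s3x, the X-linked gamma subunit, stood at 82.7, 81.1, 95.04 and 73.6 CPM (−0.04 ± 0.144, 0.928). Both overlapped between groups. Eif2s2, the beta subunit, stood at 87.0, 84.8, 108 and 96.0 CPM, lower in both mutants by −0.25 ± 0.123 (edgeR adjusted p = 0.398). The sums over eIF2 were 202 and 194 CPM in the mutants and 232 and 198 CPM in the controls.

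The 5 subunits of eIF2B were sparser. Eif2b1 stood at 18.1, 12.3, 11.4 and 12.9 CPM (0.32 ± 0.209, edgeR adjusted p = 0.527). Eif2b2 stood at 38.1, 37.6, 42.4 and 42.8 CPM (−0.17 ± 0.117, 0.542). Eif2b3 stood at 24.7, 26.1, 19.0 and 19.8 CPM, higher in both mutants by 0.39 ± 0.138 (0.249). Eif2b2 was the only one of the 5 with a negative change. Eif2b4 stood at 33.5, 24.6, 28.1 and 28.8 CPM (0.03 ± 0.166, edgeR adjusted p = 0.960) and Eif2b5, the catalytic subunit, at 23.6, 21.6, 20.8 and 20.2 CPM (0.14 ± 0.141, 0.702).

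Among the factors that choose the start codon and join the subunits, Eif5b, the GTPase of subunit joining, stood at 98.1, 81.9, 66.7 and 66.6 CPM (0.43 ± 0.130, edgeR adjusted p = 0.179). Eif5, which activates the GTPase of eIF2, stood at 256, 214, 200 and 157 CPM (0.40 ± 0.156, 0.284). In both the mutants were the higher pair, though for Eif5 the gap between the nearest samples of the 2 groups was smaller than that within either group. The other 7 genes of eIF1, eIF5 and eIF6 lay between −0.21 (Eif1) and 0.20 (Eif5a2). Eif1a and Eif1ax are close copies and can share reads. Eif4e1b (3 UMIs in all barcodes) and Eif2c5 (6 UMIs) were too sparse to test. The other factors and modifiers not yet given (Eif1ad, Eif2a, Eif2d and Eif4enif1) lay between −0.12 and 0.09.

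Mutant 2 allowed a comparison inside 1 library. Of its beta-like cells with more than 8000 UMIs, 232 had no Atf4 count and 134 had at least 3. Eef2 counted 3.79 per 10000 UMIs in the cells without Atf4 counts (exact 95% Poisson interval 3.60 to 3.98, 1489 UMIs) and 5.07 in those with at least 3 (4.80 to 5.35, 1318 UMIs). Eif3f counted 0.682 (0.602 to 0.768) against 0.993 (0.875 to 1.12), and Eif4b 1.03 (0.932 to 1.14) against 1.37 (1.23 to 1.52). At this depth the intervals lie apart for these genes, with the lower level in the cells without Atf4 counts. Eef1a1 counted 14.0 (13.6 to 14.4) against 15.8 (15.3 to 16.3), and Eif2s2, which did not reach an unadjusted p of 0.05 between samples, 0.778 (0.694 to 0.871) against 1.07 (0.944 to 1.20). Eif3a was higher in the cells without Atf4 counts, at 1.99 (1.85 to 2.13) against 1.61 (1.46 to 1.77). For Eif4a2 the intervals overlapped at 2.47 (2.31 to 2.63) and 2.72 (2.52 to 2.92), and Eif5b, higher in the mutant samples, stood at 0.832 against 0.893 with overlapping intervals. Over the 56 members with counts in both sets the intervals were apart for 9 (16.1%), 6 of them lower without Atf4 counts, beside 6.6% of 15116 genes. Among genes with at least 100 UMIs over both sets, they were apart for 9 of 50 members (18%), beside 12% of 7050 genes. Intervals cover counting error only, the cells come from 1 library, and no test was made.

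The 2 sets of cells also differed in sex and depth. Of the cells that could be told by Xist or Y-linked counts, 94 were Xist cells and 66 Y cells among those without Atf4 counts (58.8% Xist cells), and 2 were Xist cells and 113 Y cells among those with at least 3 (1.74%). The median depths were 15166 and 18130 UMIs. With every cell thinned to 8000 UMIs, the intervals stayed apart for Eef2 (3.79 against 4.93), Eef1a1 (13.6 against 15.1) and Eif2s2 (0.6735 against 1.082). Those of Eif3f (0.673 against 0.942), Eif4b (1.02 against 1.27) and Eif3a (1.80 against 1.57) overlapped, with the same directions. Thinned, they were apart for 6 of 55 members (10.9%), 3 in each direction, beside 3.55% of all genes. The 3 higher were Eif3b (0.905 against 0.504), Eif4g2 (4.06 against 3.18) and the X-linked Eif2s3x (1.03 against 0.634). With at least 100 UMIs over both sets required, they were apart for 6 of 34 members (17.6%), beside 9.19% of 4080 genes. Over all beta-like cells of any depth the Eif3a intervals overlapped as well (1.82 against 1.58). Since the pool holds few animals, the Atf4 count and the animal of origin cannot be told apart. Among Y cells only (66 and 113), Eef2 counted 3.85 (3.49 to 4.24) against 5.02 (4.72 to 5.32) and Eif2s2 0.677 (0.530 to 0.851) against 1.07 (0.938 to 1.22), again with intervals apart. Eif3f (0.686 against 0.951), Eif4b (1.15 against 1.37) and Eif3a (1.90 against 1.64) kept the direction with overlapping intervals. So did Eif3b (0.723 against 0.625), while Eif4g2 stayed apart (4.30 against 3.42). Eif2s3x turned to 0.593 against 0.751, with overlapping intervals. In control 1, Xist and Y cells held 5.91 and 5.37 counts of Eef2, 1.36 and 1.06 of Eif3f, 1.78 and 1.36 of Eif4b and 1.33 and 1.14 of Eif3a, with intervals apart for Eif3f and Eif4b. In control 2 they held 5.83 and 5.10, 1.16 and 1.01, 1.57 and 1.32, and 1.32 and 1.41 in the same order of genes, with intervals apart for Eef2 alone of these 4. Eif2s3x stood at 1.11 and 0.827 in Xist and Y cells of control 1, with intervals apart, and at 0.729 and 0.655 in control 2, overlapping. The part of sex in the values of mutant 2 was not tested.

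**Figure D3:**
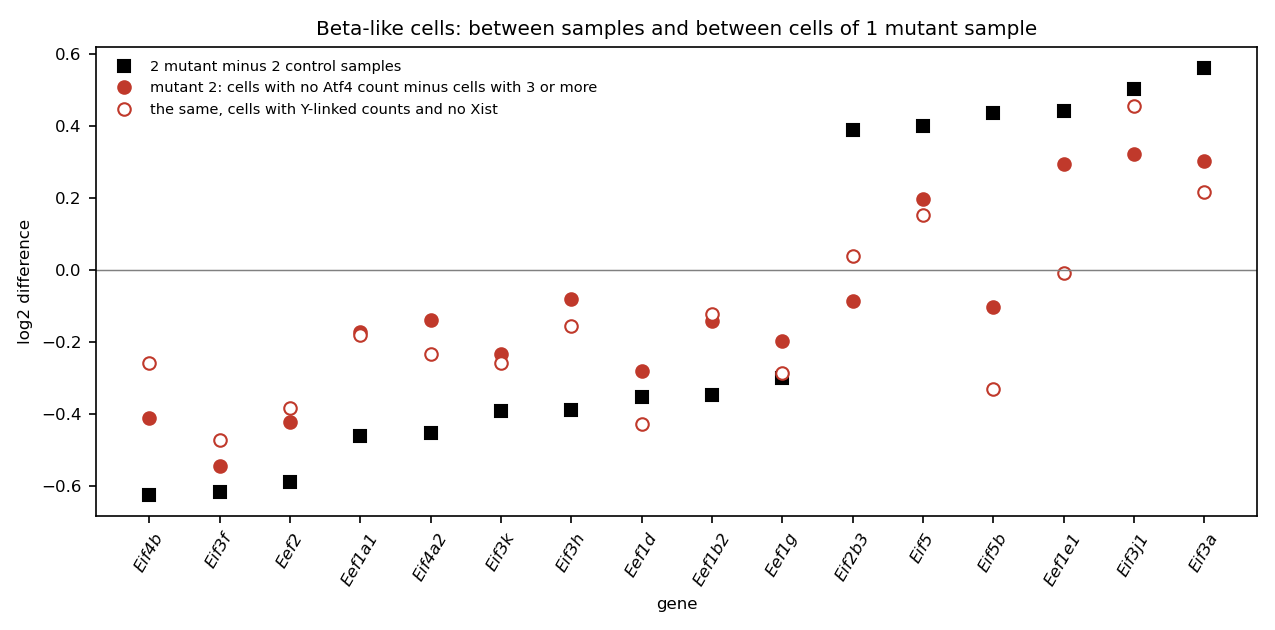
Log2 difference (vertical axis) for the 16 members with an unadjusted p under 0.05 in beta-like cells: between the 2 mutant and 2 control samples (squares), and between cells of mutant 2 with no Atf4 count and with 3 or more (circles; open, Y cells only). For Eef2 the values are −0.59, −0.42 and −0.38, and for Eif5b the circles (−0.10 and −0.33) lie on the other side of 0 from the square (0.43).

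The driver acts from the insulin locus, so the other islet cells show how far the same genes differed where no recombination was intended. They come from the same 4 pools as the beta-like cells, and the values are therefore set side by side. In alpha-like cells Atf4 itself was lower, 193 and 229 CPM in the mutants against 399 and 339 CPM in the controls (−0.80 ± 0.151, edgeR adjusted p = 0.0271). None of the 56 members passed there (0.260% of 10019 genes did), and 5 (8.93%) had an unadjusted p under 0.05, against 9.48% of all genes. Eif4a2 stood at 262, 259, 372 and 353 CPM in alpha-like cells (−0.48 ± 0.139, edgeR adjusted p = 0.219). In delta-like cells it stood at 295, 279, 366 and 383 CPM (−0.38 ± 0.140, 0.405). Its change was thus of about the same size in these 3 classes. Eef1a1 stood at 2250, 2591, 2971 and 2987 CPM in alpha-like cells (−0.30 ± 0.132, edgeR adjusted p = 0.486) and at 1895, 1980, 2217 and 2556 CPM in delta-like cells (−0.30 ± 0.129, 0.542). Eif3a was higher in both mutants in alpha-like cells, at 189, 189, 153 and 137 CPM (0.38 ± 0.1495, 0.418). Eif3j1 (0.51 ± 0.224) and Eif5b (0.59 ± 0.181) complete the 5 of the alpha-like class.

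Other members had smaller values outside beta-like cells. Eif3f changed by −0.18 ± 0.153 in alpha-like cells (153, 139, 174 and 154 CPM) and by −0.07 ± 0.156 in delta-like cells. Eif4b changed by −0.24 ± 0.158 and −0.12 ± 0.162, and Eef2 by −0.14 ± 0.136 and −0.28 ± 0.133. In cells with under 5% insulin counts, a choice made after the data were seen, the Eef2 value of delta-like cells came to −0.00, that of Eif4a2 to −0.44 in alpha-like and −0.28 in delta-like cells, and that of Eef1a1 to −0.25 and −0.19. None of the 56 members passed in delta-like cells (0.289% of 10374 genes), where 5 had an unadjusted p under 0.05 (8.93% against 8.46%), Eif2b4 (0.54 ± 0.237) and Eif4enif1 (0.66 ± 0.297) being the higher ones. None of 45 passed in endothelial-like cells (0.0169% of 5909 genes), with 1 at an unadjusted p under 0.05 (2.22% against 4.03%), and none of 38 in macrophage-like cells (0.429% of 4667 genes), with 4 (10.5% against 10.1%).

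Whether the mutant change in beta-like cells differed from that in another class was tested in 1 fit over all classes. Against alpha-like cells the difference was −0.46 ± 0.181 for Eef2, −0.44 ± 0.177 for Eif3f and −0.39 ± 0.170 for Eif4b, and no member passed on this side over 12336 genes, 0.0892% of which did (edgeR adjusted p = 0.830, 0.876 and 0.911). Against delta-like cells Eif3f had −0.55 ± 0.180 (0.778) and Eif4b −0.49 ± 0.174 (0.943), and again no member passed (0.0649% of all genes). Against endothelial-like cells none did either (0.0324%). A difference of the mutant change between beta-like and other islet cells was therefore not shown for these genes. Eef1b2 was the exception against macrophage-like cells, with −0.85 ± 0.205 (edgeR adjusted p = 0.0241). It was 1 of 56 members on this side, 1.79% against 0.446% of all genes. In macrophage-like cells, in that fit's scaling, Eef1b2 stood at 643 and 507 CPM in the mutants and 427 and 390 CPM in the controls, higher in both mutants, while in beta-like cells it was lower in both. The call was lost without mutant 1 (adjusted p = 0.287), without control 2 (0.249) and with library totals (0.0777). The macrophage-like sums hold 29 to 96 cells a sample.

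Levels also differed between the classes themselves, read in the controls of the same fit. Against alpha-like cells 4 members were higher in beta-like cells and 7 lower, 7.14% and 12.5% of the members where 13.6% and 13.4% of all genes passed, both shares below those of all genes. Higher in beta-like cells were Eif2s3x (0.49), Eif3b (0.47), Eif5b (0.45) and Eif1 (0.41). With either control left out, 4 members were called in place of 11 (7.14%, where 16.7% and 17% of all genes passed). Eef1b2 stood at 662 and 545 CPM in the alpha-like cells of controls 1 and 2 and at 336 and 325 CPM in their beta-like cells (−0.86 ± 0.119, edgeR adjusted p = 4.47e-09), and the 4 alpha-like samples (502 to 662 CPM) did not overlap the 4 beta-like samples (247 to 336 CPM). Eif1b, a paralogue of the scanning factor Eif1, stood at 108 and 119 against 75.6 and 82.2 CPM (−0.53 ± 0.131, 0.000959). Its call was lost without control 2 (0.0544). Eef1a1 stood at 2831 and 2841 against 1988 and 2010 CPM (−0.51 ± 0.169, 0.0171). That call was lost with either control left out (0.0773 and 0.0918) and in cells with under 5% insulin counts (0.0700).

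Against the other classes few members passed. Against delta-like cells Eif2s2 (0.47) and Eif5a (0.35) were higher in beta-like cells and Eef1a2 lower, 3.57% and 1.79% of members against 7.64% and 8.08% of all genes. Against endothelial-like cells Eif3a (−0.52 ± 0.159, edgeR adjusted p = 0.0113) and Eif4g2 (−0.46) were lower, 3.57% against 11.9%, and none was higher, where 6.12% of all genes were. Eif3a stood at 132 and 142 CPM in beta-like and at 165 and 208 CPM in endothelial-like cells of the controls, and without control 2 its value was −0.25 (0.743). The call was also lost in cells with under 5% insulin counts (−0.62, adjusted p = 0.0517). Against macrophage-like cells Eif4a2 (0.50) was higher (1.79% against 4.33%) and Eef1a2 and Eif1ad lower (3.57% against 9.74%). Eif1ad, named for a domain it shares with eIF1A, stood at 20.4 and 22.8 CPM against 59.3 and 42.4 CPM (−1.15 ± 0.368, 0.0227), in macrophage-like sums of 29 and 38 cells. That call was lost with either control left out (0.266 and 0.146) and in cells with under 5% insulin counts (0.0861).

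Eef1a2 had the largest difference between islet classes of all members tested. Over the 4 samples in the order used above, alpha-like cells held 70.1, 57.0, 54.9 and 67.7 CPM, and beta-like cells 1.29, 1.03, 0.519 and 1.15. No beta-like sample came near an alpha-like one, and the difference in the controls was −5.89 ± 0.304 (edgeR adjusted p = 1.30e-29). PP-like cells, whose samples of 15 to 93 cells were too small for the fit, lay at 36.9, 81.2, 54.7 and 79.9 CPM, with wide exact Poisson intervals that overlap those of alpha-like cells. Delta-like cells lay between, at 25.9, 26.5, 21.4 and 30.9 CPM, below every alpha-like sample. Endothelial-like sums held 1 to 3 UMIs of the gene per sample, and macrophage-like sums 1 to 13, 13 of them in 4 cells of control 2.

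The share of cells with at least 1 Eef1a2 UMI was 21.3% to 34.9% of alpha-like cells at median depths of 4269 to 5014 UMIs, 13.9% to 15.6% of delta-like cells at 4962 to 6079, and 0.466% to 1.31% of beta-like cells at 6093 to 7496. Delta-like cells also held glucagon counts, the marker of alpha cells, at 198 to 347 per 10000 UMIs, against 1731 to 1809 in alpha-like and 14.1 to 21.7 in beta-like cells. In cells with under 100 glucagon counts per 10000 UMIs, Eef1a2 stood at 14.2 CPM in delta-like, 0.631 in beta-like, 5.16 in macrophage-like and 52.0 in PP-like cells. The delta-like level was lower under that choice and still above the beta-like level, and the part of glucagon-cell RNA in it was not tested. In alpha-like cells the mutants and controls overlapped, and the beta-like values of about 1 CPM are too few counts (6 to 14 UMIs a sample) to read a mutant change from.

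**Figure D4:**
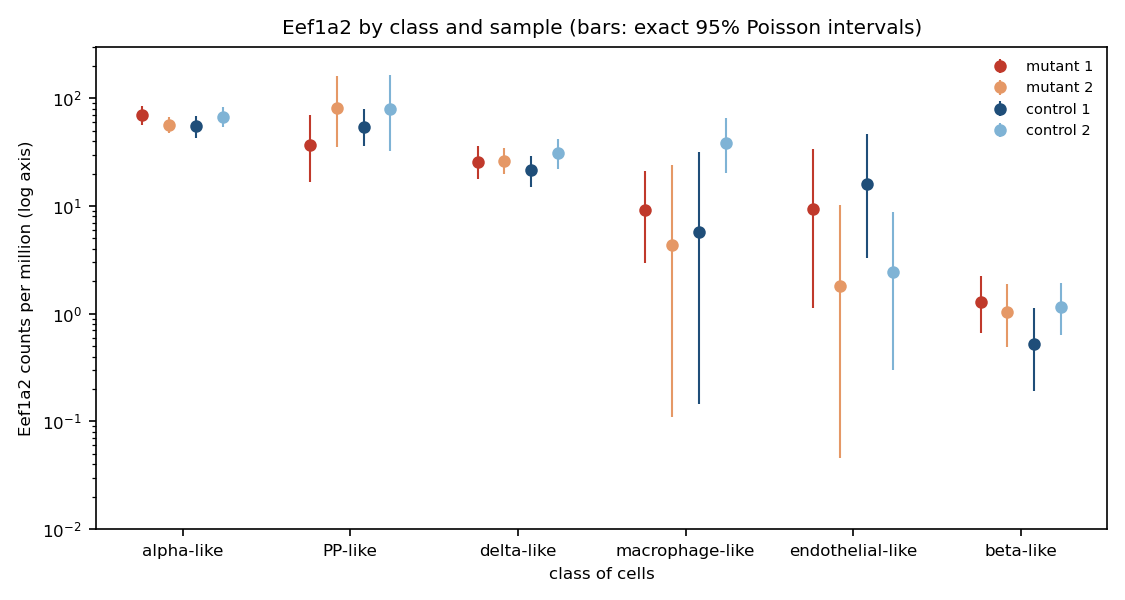
Eef1a2 CPM on a log axis (vertical) in each sample (points, coloured by sample) of 6 classes of cells, with exact 95% Poisson intervals that cover counting error only. The alpha-like samples lie at 54.9 to 70.1, the delta-like at 21.4 to 30.9 and the beta-like at 0.519 to 1.29.

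The regulators and partners of these factors were taken from a list of kinases, phosphatase subunits, binding proteins, release and recycling factors and modifying enzymes. In beta-like cells 44 were tested and none passed (0.715% of all genes did), and at an unadjusted p under 0.05 there were 3 higher and 5 lower, 8 of 44 beside 14.4% of all genes. Eif4ebp1, the repressor that binds eIF4E and is a known target of Atf4, stood at 4.90, 12.1, 23.0 and 28.9 CPM. Its change of −1.62 ± 0.322 had an edgeR adjusted p of 0.0677, with mutant 1 lowest. Its paralogue Eif4ebp2 was higher in both mutants, at 31.8, 29.5, 17.2 and 19.0 CPM (0.76 ± 0.142, 0.0572). Outside beta-like cells Eif4ebp1 changed by −0.04 ± 0.402 in alpha-like and −0.47 ± 0.462 in delta-like cells. Eif4ebp2 changed by 0.44 ± 0.274 and 0.76 ± 0.263 in these, and by 1.41 ± 0.401 in endothelial-like cells.

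Both regulatory subunits of the phosphatase that reverses eIF2 alpha phosphorylation were lower in both mutants. Ppp1r15a, the stress-induced one, stood at 47.0, 55.1, 59.3 and 75.1 CPM (−0.40 ± 0.1495, edgeR adjusted p = 0.268). Ppp1r15b, the constitutive one, stood at 25.3, 26.9, 36.0 and 39.8 CPM (−0.54 ± 0.131, 0.113). Eif2ak3, which encodes the eIF2 kinase PERK, was higher in both, at 33.9, 35.2, 26.7 and 28.3 CPM (0.33 ± 0.128, 0.285), while the other 3 eIF2 kinases lay between −0.03 and 0.29. Rps6kb1, a kinase of ribosomal protein S6, stood at 47.0, 48.2, 39.5 and 33.7 CPM (0.38 ± 0.129, 0.227). Tpt1, whose abundant mRNA is known to begin with a pyrimidine run, stood at 722, 741, 960 and 1093 CPM (−0.49 ± 0.117, 0.109). Trib3, a stress-response gene known to be induced through Atf4, stood at 0.300, 5.06, 10.5 and 14.3 CPM (−2.22 ± 0.646, 0.172). Its value in mutant 1 rests on 3 UMIs. Shifts of the same sign were seen in alpha-like and delta-like cells, given in that order. Ppp1r15b changed by −0.63 ± 0.236 and −0.53 ± 0.234, Ppp1r15a by −0.22 ± 0.163 and −0.21 ± 0.199, and Tpt1 by −0.34 ± 0.131 and −0.23 ± 0.132. Eif2ak3 changed by 0.18 ± 0.206 and 0.43 ± 0.223, and Rps6kb1 by 0.17 ± 0.219 and 0.29 ± 0.204. None of 39 partners passed in either class (0.260% and 0.289% of all genes did).

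A composite CCAAT-enhancer and Atf4 element, searched as TGATGNAA on both strands of the 300 bases from 250 before to 50 after the RefSeq start, was present in the windows of 2 of 45 members (4.44%), Eef2k and Eif2s3x, against 4.51% of 27025 genes. In beta-like cells neither of these genes differed between the groups beyond its SE. In delta-like cells Eef2k was lower in both mutants (−0.75 ± 0.435, edgeR adjusted p = 0.665). The window of Trib3 held the element, shown here in capitals as read from the gene's own strand, where it appears as its reverse complement.
Trib3, chr2:152344031-152344054, minus strand: gctcaggtTTACATCAgccgggcg
Eif2s3x, chrX:94212732-94212755, minus strand: gccatcatTTTCATCAggtctatg
A match is a description of the letters and says nothing of binding.

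Short genes had lower median changes than long genes, among the members and among all genes. Among genes whose average level in beta-like cells was 4 or more as log2 CPM, the 31 members spanning under 20 kb had a median change of −0.07, beside −0.07 for 2509 genes of that span, and the 18 longer members had 0.02, against 0.04 for 4048 genes. In alpha-like cells the medians were −0.12 over short and 0.10 over long members, beside −0.10 and 0.06 over all genes. In delta-like cells they were −0.07 and 0.09, beside −0.07 and 0.04. Of the short genes in beta-like cells, 18 of 31 members (58.1%) and 63.9% of all genes had a negative change, and of the long genes 8 of 18 members (44.4%) and 41.9% of all genes. Eef1a1, Eef2 and Eif3f span 10.7, 5.87 and 8.54 kb, and Eif3a spans 29.5 kb. The part of gene length in the changes of single members was not tested.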

How the data were processed

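The 4 deposited matrices hold whole-number counts of UMIs for each gene symbol in each cell barcode, made by the authors before deposit. Per the submitters' processing notes the genome build was mm10 and Seurat was used; the aligner and the counter are not given in the sources used here. Per the labels' protocols, islet cells were encapsulated by inDrops, libraries followed the TruDrop protocol and 10% K562 cells were added. Highest values of 4078 to 4093 lie near the 4096 sequences of a 6-base UMI, so insulin counts are near saturation. Reads were not realigned.

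A cell was kept if it had 500 genes or more and if mitochondrial counts were under 20%. Scrublet marked 28 of 6995 (0.400%), which were removed, but it cannot be taken to have worked at that share and doublets probably remain. Cells were clustered (scanpy 1.11.5, Leiden resolution 1, 30 components, 15 neighbours, Python 3.11.15) and a cluster took a class from markers among its 10 leading genes. The limits of that naming rule (2 markers among the 10, 0.5% of counts, 30% beta markers for beta-like cells) were chosen with the clusters in view, and 1 cluster of 366 cells led by digestive enzymes stayed unnamed. The names are rebuilt and may differ from the authors' cell types.

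The sums of each class in each sample were fitted with edgeR 4.0.16 (R 4.3.3), quasi-likelihood F test, after filterByExpr and TMM, with Benjamini-Hochberg adjustment over all genes and a threshold of 0.05; classes needed 20 cells in every sample. The difference between classes used 1 fit with the sample as a block. SE is the log2 change divided by the root of F. DESeq2 1.42.0 and limma-voom (limma 3.58.1) were alternatives. Both fits were tested on simulated data. Of 100 genes changed by 0.5 on the log2 scale the beta-like fit recovered 21, or 15 with the spread set gene by gene. At a change of 1 it recovered 93 and 96. The fit of class differences recovered 46, 44, 29 and 16 of 100 at 1 (against alpha-like, delta-like, endothelial-like and macrophage-like cells). At 2 it recovered 91 to 100. Most changes of about 0.5 would thus go uncalled.

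The members and gene lists were chosen with earlier results of these data known. Values in every sample are given for members of eIF2 and eIF2B, for members with an unadjusted p under 0.05 in beta-like cells, and for the 6 with the largest class difference; partners with an unadjusted p under 0.05 are named. Other members named, and the values of Eef1a2 by glucagon, were chosen after their values were seen. Start windows and spans are from RefSeq (GRCm38.p6) and GENCODE vM21.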

Additional observations from a re-analysis of the deposited data

Results flagged for a closer look

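One result differed between cell classes by the test of the difference itself. The mutant change of Eef1b2, a subunit of the eEF1B exchange complex, was −0.85 on the log2 scale when that in macrophage-like cells was taken from that in beta-like cells, with an edgeR adjusted p of 0.0241 over 12336 genes. Both mutants were below both controls in beta-like cells and above both in macrophage-like cells. Within its own class neither change passed. It was −0.35 ± 0.121 in beta-like cells (edgeR adjusted p = 0.238) and 0.47 ± 0.311 in macrophage-like cells (0.703). As given above, the call was lost with library totals and when certain single samples were left out. In cells with under 5% insulin counts, chosen after the data were seen, the difference between the classes was −1.43 (edgeR adjusted p = 0.00470). There 5 of 54 members passed in this comparison (9.26%), where 1.38% of all genes did. That choice left 54 and 30 macrophage-like cells in mutants 1 and 2 and 10 and 23 in controls 1 and 2. Control 1 was thus below the 20 cells asked of a class in every sample. Of beta-like cells only 6 and 2 in mutants 1 and 2 and 1 and 2 in controls 1 and 2 had so few insulin counts. The value of −1.43 therefore cannot stand for beta-like cells of low insulin content.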

How the results depend on the processing

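Of the 23 members named for beta-like cells, under 11 alternatives that keep all 4 samples, 237 of 253 values kept their direction and side of the threshold, 15 passed it and 1 turned: Eif2s3x was 0.073 with library totals. Leaving out a sample turned 3 of 92 values: Eif2b4 (−0.21) and Eif2s1 (−0.015) without mutant 1 and Eif2s3x (0.15) without control 1. Their ranges were −0.21 to 0.21, −0.015 to 0.18 and −0.22 to 0.15. The number of members past the threshold in beta-like cells was 0 (0.715% of all genes), but 6 with DESeq2 (1.74%). It was 3 with no filter on low counts (Eef1a1, Eef2 and Eif3f, 1.30% of all genes) and 3 with the library name prefix as a block (1.58%). Replicate numbers are shared by the groups, but the deviations of same-numbered samples did not go together (r = −0.05). With 2 samples a group this value cannot exclude that the numbers pair the samples. With the replicate block 3 members passed (Eef2, Eif3f and Eif4b), with log2 changes of −0.60, −0.62 and −0.64. There 2.97% of all genes passed, against 0.715% without the block. A fit with 1 sample left out assumes that the lone sample of its group varies like the other group. The number at an unadjusted p under 0.05 stayed within 11 to 17. In the fit used above it was 16, or 28.6% against 14.4% of all genes. Against macrophage-like cells, the number of members whose mutant change differed was 1, but 0 with library totals, 5 in cells with under 5% insulin counts (1.38% of all genes), and 0 to 3 when samples were left out (0.374% to 0.819%).

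Class differences in controls moved most. Against delta-like cells 3 (15.7% of all genes) became 9 with library totals (20%), 5 without insulin genes (16.2%) and 5 in cells with under 5% insulin counts (19.9%), against endothelial-like cells 2 (18%) became 4 without insulin genes (19%) and 7 in those cells (36.6%), and against macrophage-like cells 3 (14.1%) became 5 with library totals (13.8%). Leaving out samples gave 4 to 12 against alpha-like (16.7% to 26.2% of all genes), 1 to 5 against delta-like (6.8% to 15.8%), 1 to 3 against endothelial-like (9.67% to 18.7%) and 0 to 4 against macrophage-like cells (4.27% to 14.4%). In 3 of the 6 named class differences the call was lost in cells with under 5% insulin counts. Only 1 to 6 beta-like cells a sample met that limit. The number in alpha-like, delta-like, endothelial-like and macrophage-like cells for mutant against control stayed 0 under every alternative run. The cause was not tested.

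Summed levels in beta-like cells moved by more than the mean of the 2 groups' SDs with library totals: eEF1 −0.31, eIF1, eIF5 and eIF6 0.065, eIF2 −0.0037, eIF2B 0.19, eIF3 0.057, eIF4 0.011 and the other factors 0.076. Without the highest gene they were −0.31 for eEF1, 0.085 for eIF1, eIF5 and eIF6, −0.0062 for eIF2, 0.20 for eIF2B, −0.15 for eIF3 and −0.19 for eIF4. With 2 pools a group, SEs of 0.11 to 0.21 limit what can be called among the named members.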
